A study of Mus musculus with 6 samples.

Results

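The microRNA genes Mir183, Mir96 and Mir182 form 1 genomic cluster of 3 members, and their tags were followed in 6 libraries of small RNA from J1 cells, a line of mouse embryonic stem cells. A tag is a distinct read sequence with its count. Tags of 18 to 26 bases that matched the hairpins exactly on the sense strand were summed for each hairpin arm and library, where an arm is the 5p or the 3p side of the hairpin. The cluster contributed 3 of 1174 hairpins with a Mir symbol and 6 of 1262 arms with tags, and all 6 arms had tags in every library.

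A microRNA is cut from a hairpin in a primary transcript, first by Drosha in the nucleus and then by Dicer in the cytoplasm, and one arm usually enters an Argonaute protein as the guide strand while the other, the passenger strand, is mostly lost. The guide recognises messenger RNAs mainly through its seed, the bases just after its 5' end. The cluster is transcribed as a polycistron and is known above all for its high level in the sensory cells of the eye, ear and nose, where it is needed for hearing and vision. Its members are also known to be repressed, with the miR-200 family, by the transcription factor ZEB1, and miR-182-5p is known to target Foxo transcripts.

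The cells were adapted to gelatin and kept in 1000 U/ml leukemia inhibitory factor (LIF), which maintains mouse embryonic stem cells undifferentiated, and all groups shared these conditions. Treatments lasted 24 h. The groups were 1 µM retinoic acid (RA), which induces differentiation, 1 µM BIO and 3 µM CHIR99021, both inhibitors of the kinase GSK3, 50 µg/ml vitamin C, a cofactor of dioxygenases that act on DNA and histones, 1 µL ddH2O and 1 µL DMSO. DMSO was the vehicle control of RA, BIO and CHIR99021, and ddH2O that of vitamin C. There was 1 library per group, of 1 cell line, so no spread between cultures could be measured and no p-value was possible.

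Summed tag counts were 18870345 to 23758363 per library, of which 3.76% in RA and 6.01 to 11.4% in the other 5 were microRNA tags, 729181 in RA and 1428534 to 2155155 elsewhere. Levels are given as counts per 1000000 microRNA tags of the library (CPM), and 3 counts, the limit that a count of 0 allows, correspond to 4.11 CPM in RA and 1.39 to 2.10 CPM in the others. Ratios carry a 95% exact conditional binomial (Clopper-Pearson) interval. No molecular identifiers were used, so that reads need not be independent molecules, and intervals cover counting error only. A call, higher or lower, needed a ratio of 2-fold or more, an interval that left out 1, and 10 CPM or more in 1 of the 2 libraries. The RA label was checked on miR-10a-5p, a microRNA of the Hox clusters, which had 57226 CPM in RA against 484 CPM in DMSO. Stem cell microRNAs of the miR-290 and miR-302 families summed to 168436 CPM in RA and 272844 to 342615 CPM in the other 5 libraries, so the labelled cell type was seen in all 6.

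The mature 5p sequences are shown first because the seed, in capitals (bases 2 to 8), sets the members apart from each other. They are RefSeq sequences on GRCm38.p6, written 5′ to 3′, as are the 3p arms that follow them.
miR-183-5p: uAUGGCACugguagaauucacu
miR-96-5p: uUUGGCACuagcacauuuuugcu
miR-182-5p: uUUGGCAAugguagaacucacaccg
miR-183-3p: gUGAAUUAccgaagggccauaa
miR-96-3p: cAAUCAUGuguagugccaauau
miR-182-3p: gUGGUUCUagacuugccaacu

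The 3 guide strands had related but distinct seeds. Set base by base from the 5' end, the seeds of miR-183-5p and miR-96-5p shared 6 of 7 bases, those of miR-96-5p and miR-182-5p 6 of 7, and those of miR-183-5p and miR-182-5p 5 of 7. Over all 22 bases compared, seed included, the order was different. There miR-183-5p and miR-182-5p were identical at 18, against 13 for miR-183-5p and miR-96-5p. Among 1679 mature mouse sequences, the seeds of miR-183-5p and miR-182-5p occurred in no other. The seed of miR-96-5p occurred in 1 other, miR-1271-5p, encoded on chromosome 13 and shown for comparison.
miR-1271-5p: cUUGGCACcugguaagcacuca
The miR-1271-5p arm had 0 tags in all 6 libraries, which allows up to 4.11 CPM in RA and up to 2.10 CPM elsewhere, so at this depth the shared seed was detected on miR-96-5p alone.

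The genes lie on the minus strand of mouse chromosome 6 (GRCm38), Mir183 at 30169668 to 30169737, Mir96 at 30169446 to 30169551 and Mir182 at 30165918 to 30165992. The GENCODE annotation places no other gene over any of them, so they are intergenic there. Mir183 and Mir96 are 116 bases apart, Mir182 lies a further 3453 bases downstream, and the whole cluster spans 3820 bases. The nearest annotated genes are Rncr4, a long noncoding RNA gene 3156 bases away, and Nrf1, which encodes a transcription factor and lies 12460 bases away on the other side, both on the plus strand.

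miR-182-5p was the most abundant arm of the cluster in every library. It had 4597 CPM in RA, 7743 in BIO, 9034 in CHIR99021, 6630 in vitamin C, 7059 in ddH2O and 7561 in DMSO, and ranked between 23rd and 48th of all arms. RA stood below the other 5 libraries and CHIR99021 above them, while the counting intervals of BIO and DMSO overlapped.

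miR-183-5p came next, with 1016 CPM in RA, 1434 in BIO, 1715 in CHIR99021, 1926 in vitamin C, 1948 in ddH2O and 1593 in DMSO. Its order was not that of miR-182-5p: vitamin C and ddH2O, whose intervals overlapped, were the highest, and RA was again the lowest. miR-96-5p, the arm in which seed mutations are known to cause deafness in mice and humans, had 547 CPM in RA, 822 in BIO, 1113 in CHIR99021, 1106 in vitamin C, 1099 in ddH2O and 1082 in DMSO. The last 4 of these libraries lay within each other's counting intervals, BIO stood below them and RA below BIO.

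Of the 3p arms, that of miR-183 was the most abundant, with 225 CPM in RA, 349 in BIO, 400 in CHIR99021, 399 in vitamin C, 499 in ddH2O and 355 in DMSO. The passenger strand of miR-182 had 9.60 CPM in RA, 43.8 in BIO, 47.6 in CHIR99021, 28.0 in vitamin C, 33.7 in ddH2O and 57.5 in DMSO, from 7 counts in RA and 124 in DMSO. That of miR-96 had 4.11 CPM in RA, 18.1 in BIO, 25.9 in CHIR99021, 16.9 in vitamin C, 16.0 in ddH2O and 15.3 in DMSO, and the RA value rested on 3 counts. The order of the 6 arms was the same in all 6 libraries, and the only neighbours in it whose intervals overlapped were miR-182-3p and miR-96-3p, in RA and in vitamin C.

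**Figure D1:**
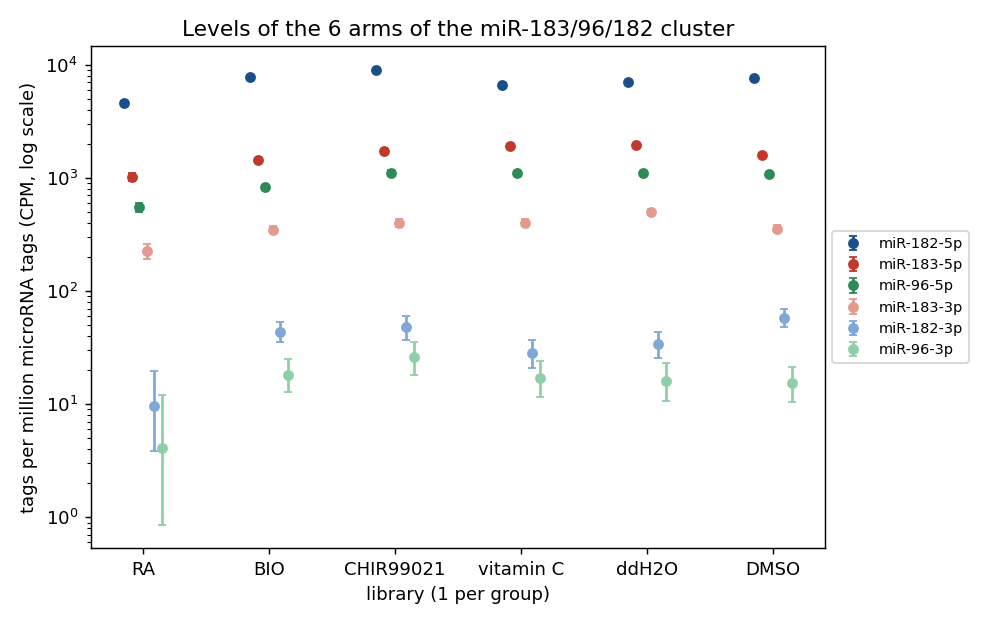
Level of each arm in each library, in CPM on a log axis, with 95% exact Poisson counting intervals. Every arm has its lowest point in RA, where miR-182-5p is at 4597 CPM, and the intervals of miR-182-3p and miR-96-3p are wide because few tags were counted.

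Against DMSO, all 6 arms were lower in RA. miR-183-5p was 1.57-fold lower (1.45 to 1.70) and its 3p arm 1.58-fold lower (1.33 to 1.88). miR-182-5p was 1.64-fold lower (1.58 to 1.71). miR-96-5p was 1.98-fold lower (1.78 to 2.20), just short of the 2-fold that a call required. None of these intervals included 1, and none of the 4 arms was called. miR-182-3p, a passenger strand, fell 5.99-fold (2.82 to 15.2), and miR-96-3p was lower by a ratio of 3.72 that rests on 3 counts in RA and has an interval of 1.17 to 18.97. These 2 of 6 arms were called lower, where the background over all 534 arms compared was 7.68% called lower and 33.1% higher, or 40.8% together. The median log2 ratio of the 6 arms was -0.85, against 0.46 over all arms compared, of which 31.1% lay below 0. The summed cluster had 6399 CPM in RA and 10664 CPM in DMSO, 1.67-fold lower (1.61 to 1.72).

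The size of this difference depended on the scaling. Over all arms, 177 were called higher and 41 lower in RA. TMM scaling moved all RA log2 ratios by -0.51, median-of-ratios scaling by -0.36 and scaling to all tags by -1.60, and the calls over all arms became 98 higher and 93 lower, 113 and 72, and 47 and 313. The log2 ratio of the summed cluster was -0.74 per microRNA tags, -1.25 with TMM, -1.098 with median-of-ratios scaling and -2.34 with all tags, and it was past 2-fold under the last 3. With ddH2O in place of DMSO it was -0.74. Over 13 alternatives of scaling, counting and control, all 78 values of the 6 arms were below 0, and miR-182-3p and miR-96-3p were called lower in each. The alternatives built on the most abundant tag of an arm do not test miR-182-3p. What they count there is the piece between the arms of the hairpin, the loop tag described below. Against ddH2O, miR-182-3p was 3.51-fold lower. With a minimum level of 100 CPM for a call, neither of these low arms could be called.

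**Figure D2:**
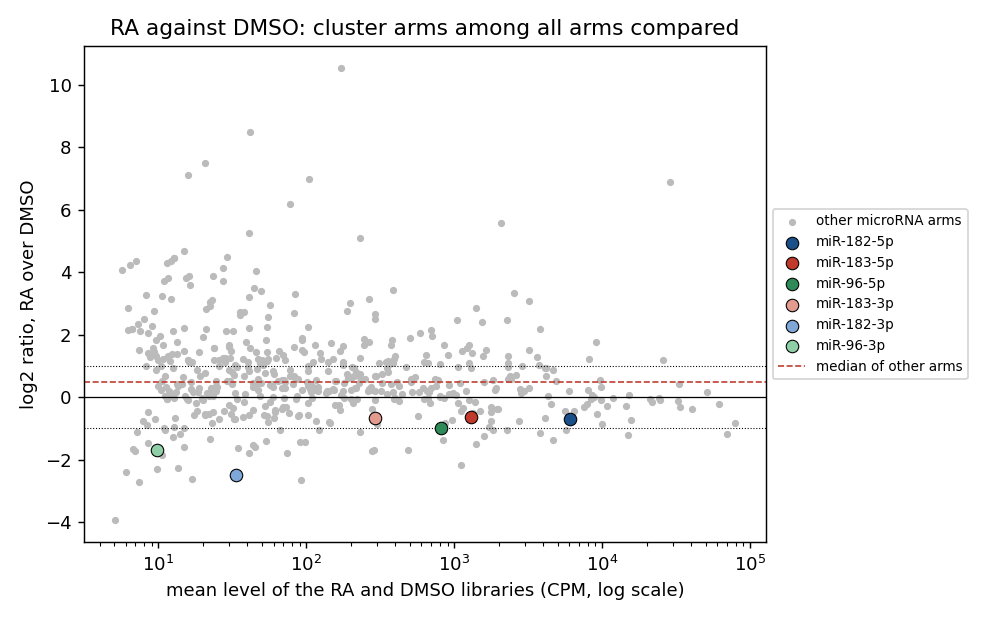
Log2 ratio of RA over DMSO against the mean level of the 2 libraries (CPM, log axis) for all arms compared, with the 6 arms of the cluster in colour, dotted lines at 2-fold and a dashed line at the median of the other arms. All 6 arms of the cluster lie below 0, where 31.1% of all arms lie, and miR-182-3p is the lowest of them at -2.49.

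Other microRNA groups differed between these libraries too. The stem cell list summed to 168436 CPM in RA and 291916 CPM in DMSO, with 5 of 18 arms called lower, 0 higher and a median log2 ratio of -0.61. Over all arms compared, 7.68% were called lower and 33.1% higher. The muscle list, led by miR-1a-3p, summed to 6326 CPM in RA and 1406 CPM in DMSO. The fibroblast list summed to 2218 CPM in RA and 1825 CPM in DMSO, and the neuron list to 952 CPM in RA and 2254 CPM in DMSO. The blood cell list summed to 119 CPM in RA and 157 CPM in DMSO, and the liver microRNA miR-122 to 54.9 CPM in RA and 25.5 CPM in DMSO. Tags were found for 20 of 23 stem cell arms in RA and 22 in DMSO, for 7 of 7 fibroblast arms in RA and 6 in DMSO, and for all 4 muscle, 2 neuron and 6 blood cell arms in both. The part of these cell types, and of the low microRNA share of the RA library, in the lower level of the cluster was not tested. In bulk RNA, fewer cells that express the cluster and less of it per cell cannot be told apart.

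The ratio of the 5p to the 3p arm of miR-182 was 479 in RA (232 to 1192), 177 in BIO (144 to 219), 190 in CHIR99021 (150 to 245), 236 in vitamin C (181 to 316), 209 in ddH2O (162 to 275) and 131 in DMSO (110 to 158). This ratio within a library needs no scaling. The RA interval was apart from those of DMSO and BIO and overlapped those of CHIR99021, vitamin C and ddH2O, and DMSO had the lowest ratio of the 6. For miR-183 the same ratio was 4.52 in RA (3.81 to 5.38) and 4.49 in DMSO (4.15 to 4.86), with a range of 3.90 to 4.82 over the 6 libraries. For miR-96 it was 133 in RA (45.2 to 648) and 70.7 in DMSO (50.2 to 103), with overlapping intervals, so that a difference was not detectable at this depth. Over 99 hairpins with a more abundant arm at 100 CPM or more and a less abundant arm at 10 CPM or more on average, the log2 ratio of the minor arm minus that of the major arm, RA against DMSO, had a median of -0.13 (5th to 95th percentile -1.43 to 1.01). That of miR-182, -1.77, was the 2nd lowest of the 99, while miR-96 had -0.71 and miR-183 had -0.0072.

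BIO at 1 µM and CHIR99021 at 3 µM were each set against the same DMSO library, and since their doses differ the values are given side by side only. No arm was called with BIO, where the background was 7.2% of 472 arms (1.91% higher and 5.3% lower), and none with CHIR99021, where it was 18.3% of 481 arms (6.03% higher and 12.3% lower). miR-182-5p had a ratio to DMSO of 1.02 with BIO (1.00 to 1.05) and 1.19 with CHIR99021 (1.17 to 1.22), the CHIR99021 value falling below 1 when counts were scaled to all tags (log2 ratio -0.67). miR-183-5p had a ratio of 0.8999 with BIO (0.857 to 0.945) and 1.08 with CHIR99021 (1.02 to 1.13), also below 1 with all tags (log2 ratio -0.82). miR-96-5p was 1.32-fold lower with BIO per microRNA tags (1.24 to 1.40), and its ratio stayed below 1 under every scaling. With CHIR99021 it had a ratio of 1.03 (0.9645 to 1.097). Scaled to all tags, miR-182-3p was called lower with CHIR99021 (2.30-fold). The summed cluster reached 10410 CPM in BIO, 12336 CPM in CHIR99021 and 10664 CPM in DMSO. Its log2 ratio was -0.035 with BIO, where TMM (0.077) and median-of-ratios scaling (0.095) gave the other sign, and 0.21 with CHIR99021, where all tags gave -0.72. The CHIR99021 library also held miR-122-5p at 1324 CPM, against 25.5 CPM in DMSO, and the part of what goes with it in these values was not tested.

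With vitamin C, no arm was called against ddH2O, where the background was 7.01% of 485 arms (5.57% higher and 1.44% lower). The 5p arms had ratios of 0.939 (0.916 to 0.963) for miR-182, 0.988 (0.943 to 1.04) for miR-183 and 1.01 (0.945 to 1.07) for miR-96, so differences of 2-fold lay outside all 3 intervals. miR-183-3p was 1.25-fold lower with vitamin C (1.13 to 1.38), with 399 CPM in vitamin C and 499 CPM in ddH2O. With DMSO as the control, miR-182-3p was called lower in vitamin C (2.05-fold). The summed cluster had 10106 CPM in vitamin C and 10655 CPM in ddH2O, a log2 ratio of -0.076 that became 0.019 when counts were scaled to all tags.

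The vehicles themselves, ddH2O and DMSO, had nearly equal summed levels, 10655 CPM in ddH2O and 10664 CPM in DMSO, but not equal arms. No arm was called (background 7.45% of 483 arms, 5.18% higher and 2.28% lower). miR-183-3p was 1.41-fold higher in ddH2O (1.27 to 1.55) and miR-183-5p 1.22-fold higher (1.17 to 1.28, lower with all tags, log2 ratio -0.12), while miR-182-3p was 1.71-fold lower (1.24 to 2.37), and 2.27-fold lower and called when scaled to all tags. Per microRNA tags, the 1.71-fold was no smaller than the ratio of any arm with BIO, CHIR99021 or vitamin C.

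**Figure D3:**
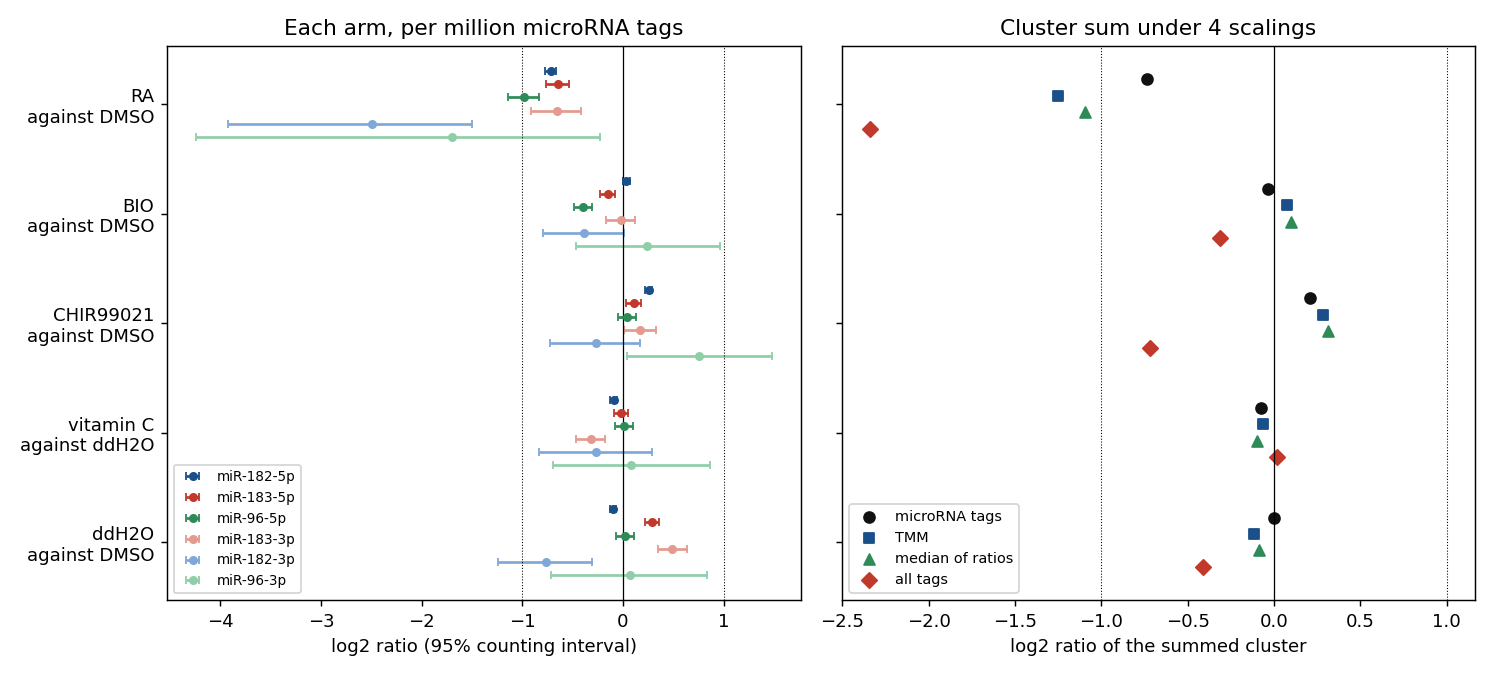
Left, log2 ratio of each arm in the 5 comparisons with 95% counting intervals, and right, log2 ratio of the summed cluster under 4 scalings, with dotted lines at 2-fold. The RA values lie below 0 in both panels, down to -2.49 for miR-182-3p and -2.34 for the sum scaled to all tags, and those of the other comparisons scatter around 0.

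The share of miR-182 among the 3 guide strands differed between the libraries on DMSO and those on ddH2O, most clearly against miR-183-5p. The ratio of miR-182-5p to miR-183-5p was 4.52 in RA (4.18 to 4.90), 5.40 in BIO (5.195 to 5.62), 5.27 in CHIR99021 (5.04 to 5.50) and 4.75 in DMSO (4.58 to 4.93), the 4 libraries on DMSO as vehicle. In the libraries on ddH2O it was 3.44 in vitamin C (3.32 to 3.57) and 3.62 in ddH2O itself (3.49 to 3.76). The intervals of the 2 sets did not overlap. Counted over 18 to 30 bases, the ratio was 5.33 in RA, 6.37 in BIO, 5.89 in CHIR99021, 4.07 in vitamin C, 4.42 in ddH2O and 5.52 in DMSO, and the sets were still apart. Vehicle and anything else that the 2 ddH2O libraries share cannot be told apart, and the split was noticed after the values were seen. miR-182-5p made up 74.6% of the summed 5p arms in RA, 77.4% in BIO, 76.2% in CHIR99021, 68.6% in vitamin C, 69.8% in ddH2O and 73.9% in DMSO. The ratio of miR-182-5p to miR-96-5p was also lower in the libraries on ddH2O, but there the intervals of the sets overlapped. It was 6.99 in DMSO (6.69 to 7.30) and 6.42 in ddH2O (6.12 to 6.74).

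miR-183-5p was made with more than one seed, and its main tags are shown because their starts differ by 1 base. Tags are given in the DNA letters of the files, with bases 2 to 8 in capitals.
miR-183-5p, annotated start: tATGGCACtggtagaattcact
miR-183-5p, start 1 base downstream: aTGGCACTggtagaattcactg
The downstream start accounted for 23.4 to 25.5% of miR-183-5p tags in the 6 libraries, lowest in BIO and highest in DMSO. Its seed, UGGCACU in RNA letters, occurred in none of the 1679 mature mouse sequences. In all, 24.6% of miR-183-5p tags lay off the main start, which ranked 35th among 250 arms of 100 CPM or more. The other guide strands were uniform, with 99.2 to 99.9% of miR-96-5p tags and 99.5 to 99.8% of miR-182-5p tags at the annotated start.

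On the other arm of miR-183 the annotated start was the minor one. The most abundant miR-183-3p tag began 1 base downstream of the RefSeq 5' end and is printed to show the shifted seed.
miR-183-3p, most abundant tag: tGAATTACcgaagggccataa
Such starts made up 84.1 to 87.4% of miR-183-3p tags, lowest in DMSO and highest in vitamin C, and their seed, GAAUUAC, was also found in no other mature sequence.

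The 3' ends varied more. miR-182-5p had 49.9% of its tags of 18 to 26 bases at the annotated 25 bases and 23.6% at 26 bases. The end 1 base past the annotated one made up 17.4% of miR-182-5p tags in RA (16.1 to 18.7), 23.7% in BIO, 22.03% in CHIR99021, 24.1% in vitamin C, 25.03% in ddH2O and 24.7% in DMSO (24.1 to 25.4). The RA library was the lowest, with an interval apart from the other 5. The mean 3' end of miR-182-5p lay 0.143 bases further upstream in RA than in DMSO (difference -0.143), the 9th lowest of 250 arms, whose median difference was 0.057. These shares and means leave out tags longer than 26 bases, which have the furthest 3' ends. Tags of 27 to 30 bases were 15.1% of miR-182-5p tags of 18 to 30 bases in RA and 14.1% in DMSO.

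miR-96-5p ended 1 base short of the annotation in 24.6% of tags in RA, 17.7% in BIO, 25.9% in CHIR99021, 31.7% in vitamin C, 24.5% in ddH2O and 32.5% in DMSO. BIO and DMSO were the extremes, and the 2 vehicles differed by as much as RA and DMSO. miR-183-5p tags that ended 3 bases short made up 5.13% in RA (3.65 to 6.97) and 1.37% in DMSO (1.01 to 1.82), and 0.997 to 1.55% in the other 4 libraries. RA stood apart here, from 38 tags, and tags of 18 to 19 bases made up 14.4% of the whole RA library against 10.9% of DMSO. The part of this in the shorter miR-183-5p was not tested.

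The upper length of 26 bases cut off miR-182-5p tags but hardly any of the other members. Tags of 27 to 30 bases that matched the Mir182 hairpin numbered 12686, of which 12681 began at the annotated 5p start, and their share of tags of 18 to 30 bases was 15.1% in RA, 15.2% in BIO, 10.5% in CHIR99021, 15.3% in vitamin C, 18.1% in ddH2O and 14.1% in DMSO. The main one is shown because it extends the annotated sequence.
miR-182-5p, 27 bases: tTTGGCAAtggtagaactcacaccggt
This tag was counted 11710 times. For miR-183 only 2 tags, and for miR-96 none (0), were that long, so the levels above are too low for miR-182-5p relative to the other members.

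**Figure D4:**
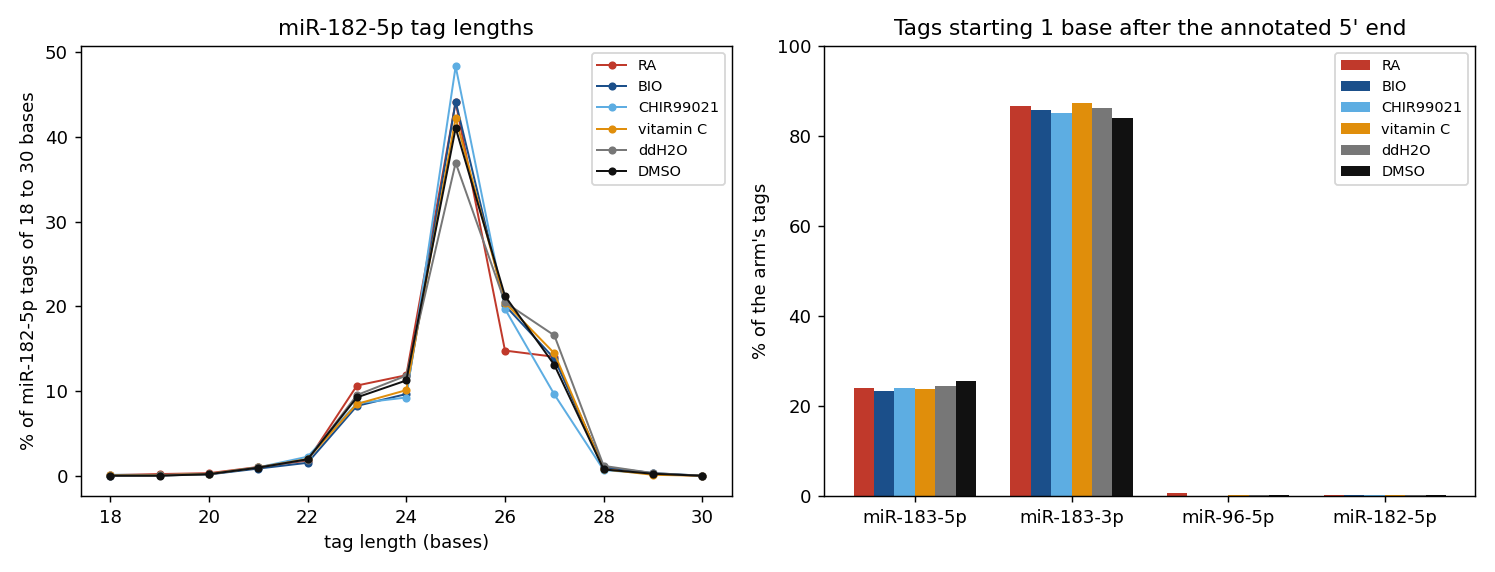
Left, length of miR-182-5p tags as a share of its tags of 18 to 30 bases in each library, and right, share of tags that start 1 base after the annotated 5' end for 4 arms. The lengths peak at 25 bases in all libraries with a shoulder at 27 bases, and the shifted starts are near 24% for miR-183-5p, near 86% for miR-183-3p and near 0 for miR-96-5p and miR-182-5p.

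Bases not encoded in the hairpin were added to the 3' ends of some members, which the exact matches above leave out. Such tags carry 1 to 3 extra bases after an exact match. A single added A made up 14.0% of miR-183-5p tags when these were included, with 12.6 to 15.4% in the 6 libraries. A single added T, which stands for U in the RNA, made up 8.18% of miR-183-3p tags. For miR-182-5p an added A made up 6.35% and an added T 2.58%, and the T share was 3.94% in RA (3.34 to 4.61), 2.51% in BIO, 2.14% in CHIR99021, 2.44% in vitamin C, 3.09% in ddH2O (2.81 to 3.40) and 2.42% in DMSO (2.20 to 2.66). The intervals of RA and ddH2O overlapped, and both lay above that of DMSO. miR-96-5p was hardly extended, with 1.16% for all additions together.

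The loop of the Mir182 hairpin was also found in the libraries. The RefSeq hairpin, with the mature arms in capitals, shows that the bases between the arms form a piece of 18 bases, the shortest length in the files.
Mir182 hairpin: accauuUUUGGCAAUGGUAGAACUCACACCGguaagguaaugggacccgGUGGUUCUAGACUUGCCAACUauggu
miR-182 loop tag: gtaaggtaatgggacccg
The tag is exactly the sequence between the arms, and 1 of 141767 GENCODE transcripts holds it, that of Mir182. It was counted 2 times in RA, 35 in BIO, 51 in CHIR99021, 94 in vitamin C, 17 in ddH2O and 31 in DMSO. In CPM this was 2.74 in RA, 16.7 in BIO, 35.7 in CHIR99021, 49.7 in vitamin C, 9.72 in ddH2O and 14.4 in DMSO.

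The loop tag was thus 5.12-fold higher in vitamin C than in ddH2O (3.03 to 9.15) and 2.48-fold higher in CHIR99021 than in DMSO (1.56 to 4.01, or 1.31-fold, 0.820 to 2.11, per all tags). With BIO the ratio to DMSO was 1.16 (0.694 to 1.94). In RA it was 5.24-fold lower than in DMSO, with an interval of 1.33 to 45.2 from 2 counts. In vitamin C the loop outnumbered the 3p arm, 49.7 CPM against 28.0 CPM, while in the other 5 libraries the 3p arm was the higher. The arms of miR-182 did not move with the loop in vitamin C, where their ratios to ddH2O were 0.939 for 5p and 0.831 for 3p (0.563 to 1.23). The share of tags of 18 to 19 bases in the whole library was 14.4% in RA, 8.01% in BIO, 15.8% in CHIR99021, 18.7% in vitamin C, 11.0% in ddH2O and 10.9% in DMSO, and the part of this share in the loop counts was not tested. The loop of Mir183 between the arms has 17 bases, below the shortest tag, and that of Mir96 has 19 bases and 0 tags.

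**Figure D5:**
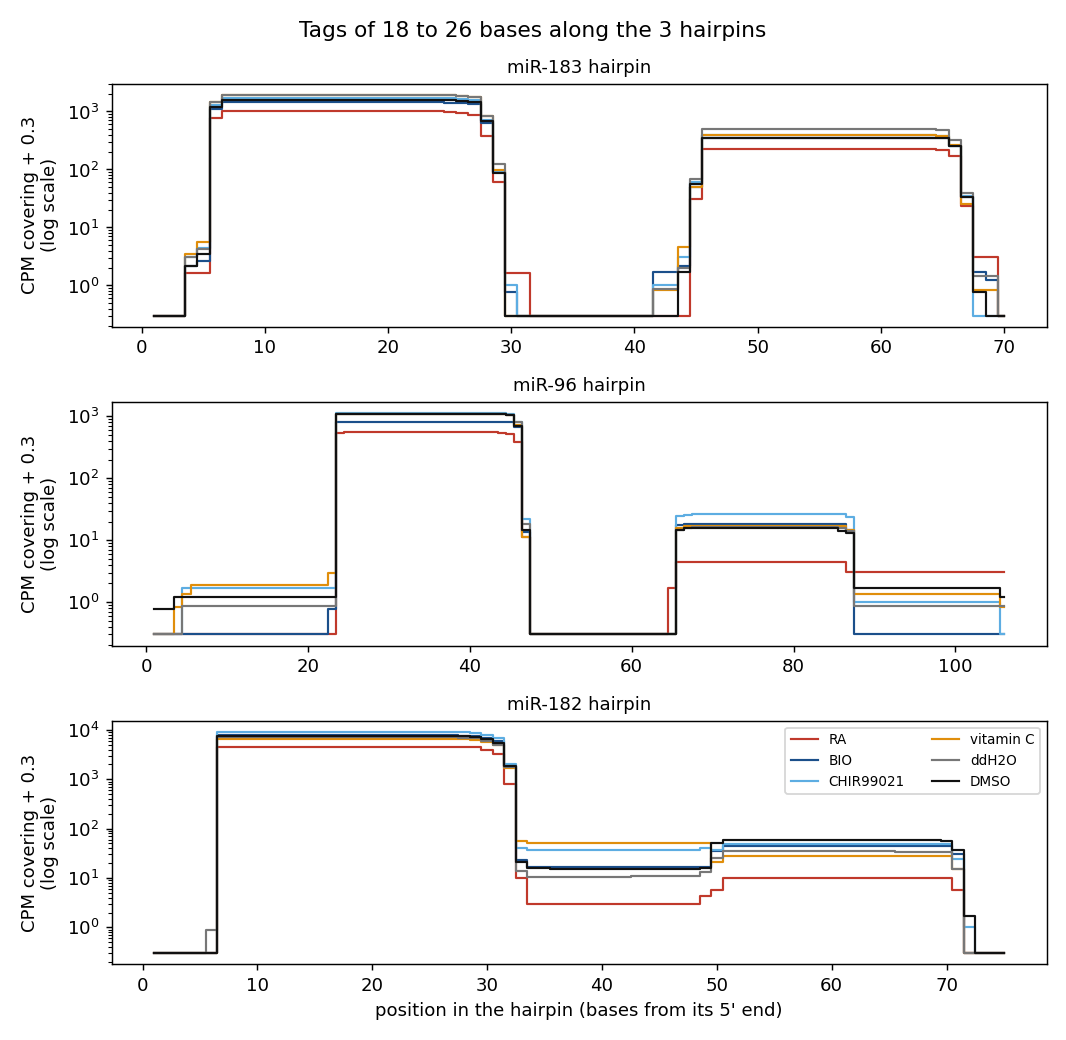
Tags of 18 to 26 bases that cover each position of the 3 hairpins, in CPM plus 0.3 on a log axis, from the 5' end of the hairpin, 1 line per library. Both arms are covered in all 3 hairpins, only Mir182 is covered over the whole stretch between them, where vitamin C (49.7 CPM) is the highest and RA (2.74 CPM) the lowest line, and RA is lowest over both arms of each hairpin.

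The microRNAs with a pattern over the 6 libraries closest to miR-183-5p were miR-181c-5p (root mean square difference 0.060 in centred log2 CPM), miR-101a-3p (0.121), miR-23b-3p (0.148), miR-32-5p (0.168) and miR-192-5p (0.173), out of 246 arms of other loci. The cluster's own arms lay at 0.099 (miR-183-3p), 0.118 (miR-96-5p), 0.249 (miR-182-5p), 0.535 (miR-96-3p) and 0.650 (miR-182-3p). For miR-182-5p the closest were miR-295-3p (0.1002), miR-505-5p (0.106), miR-5128-3p (0.107), miR-291b-5p (0.108) and miR-24-3p (0.134), and the nearest cluster arm was miR-96-5p at 0.228. Each pattern rests on 6 libraries that share their depth and scaling within a library, and miR-291b and miR-295 belong to the stem cell cluster miR-290 to miR-295.

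The miR-200 family with miR-203, known like the cluster as epithelial and ZEB1-repressed, had no arm called lower in RA per microRNA tags. Of its 6 arms compared, 1 was called higher, with a median log2 ratio of 0.098. The background was 33.1% higher and 7.68% lower, so 0 lower among 6 arms is near that share. The calls turned on the scaling, which moves all log2 ratios alike and so leaves the distance to the cluster unchanged. As sums per microRNA tags, the list had 1299 CPM in RA and 1224 CPM in DMSO, and the cluster 6399 CPM in RA and 10664 CPM in DMSO. For the list, TMM gave a median of -0.42, with 1 arm called higher and 1 lower. All tags gave -1.50, with 0 called higher and 5 of 6 lower. The arm called higher per microRNA tags was miR-203-3p, with 45.3 CPM in RA and 14.8 CPM in DMSO. miR-200a-3p had 458 CPM in RA and 425 CPM in DMSO, and miR-200b-3p had 363 CPM in RA and 342 CPM in DMSO. miR-200c-3p had 149 CPM in RA and 180 CPM in DMSO, miR-429-3p had 208 CPM in RA and 152 CPM in DMSO, and miR-200b-5p had 63.1 CPM in RA and 90.5 CPM in DMSO. Per microRNA tags, no arm of this list was called with BIO (0 of 6), CHIR99021 (0 of 7) or vitamin C (0 of 7). The background was 7.2% with BIO, 18.3% with CHIR99021 and 7.01% with vitamin C.

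Among 13 arms with tags of microRNAs known, like the cluster, from sensory organs and neuroepithelium, 6 were compared with RA. Of these, 2 were called higher and 2 lower, where the background was 33.1% higher and 7.68% lower. Called higher were miR-135a-2-3p, with 79.5 CPM in RA and 1.86 CPM in DMSO, and miR-9-3p, with 69.9 CPM in RA and 31.1 CPM in DMSO. Called lower were both arms of miR-124. miR-124-3p, the main neuronal microRNA, was 2.37-fold lower (2.19 to 2.57), with 944 CPM in RA and 2234 CPM in DMSO. miR-9-5p, also of the nervous system, had 233 CPM in RA and 152 CPM in DMSO. With CHIR99021, 3 of 7 arms were called higher (background 6.03%). Among them were miR-211-5p with 112 CPM in CHIR99021 and 3.25 CPM in DMSO and miR-211-3p with 91.0 CPM in CHIR99021 and 0.928 CPM in DMSO. With BIO 2 of 7 were called higher (background 1.91%), both of miR-211. The miR-211 arms are of the same hairpin and reached 10 CPM only in the treated library of each comparison. In DMSO, miR-211-3p lay below the 1.39 CPM that 3 counts correspond to. The shares with CHIR99021 and BIO rest largely on this hairpin and are not read as a result about the list. With vitamin C none (0 of 5) was called, against a background of 7.01%. These calls are per microRNA tags and turned on the scaling, as did those over all arms in RA. Scaled to all tags, the list had 1 arm called higher and 3 lower in RA. It then had 2 higher and 2 lower with CHIR99021, and 1 higher and 0 lower with vitamin C. TMM gave 1 higher and 2 lower in RA. With BIO, 2 were higher under each scaling. Per microRNA tags and against the assigned vehicle, no member of the cluster was called with CHIR99021, BIO or vitamin C.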

How the data were processed

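Small RNA of 6 libraries was sequenced by the authors, who deposited raw counts per distinct tag, with its length (18 to 44 bases) and no gene. The submitters' processing notes name mm9. Trimming is not given in the sources used here.

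Tags of 18 to 26 bases were matched exactly to GENCODE M21 hairpins (GRCm38). Tags of rRNA, snoRNA, scaRNA, snRNA, Gm42418 or mitochondrial rRNA or tRNA were left out, and tags of several hairpins were split evenly. Tags starting within 2 bases of an arm's most abundant tag were summed. For the cluster the RefSeq mature start was used, because the most abundant tag on the 3p side of Mir182 is a loop fragment. Log2 ratios used a pseudocount of 0.5. Counting was tested on simulated data.

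Named were all cluster arms, miR-200 and sensory list members at 100 CPM or more, some called members below that level, and the 5 arms most like miR-182-5p and miR-183-5p. Members and lists were chosen with earlier results of these data known. Alternatives were scaling by edgeR 4.0.16 (TMM), by DESeq2 1.42.0 (median of ratios) or to all tags, other lengths, starts, levels and controls. Run in R 4.3.3 and Python 3.11.15.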

Additional observations from a re-analysis of the deposited data

Results flagged for a closer look

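The 18-base loop tag of miR-182 lies outside the arms that were compared. It was counted 94 times in vitamin C and 17 times in ddH2O, a 5.12-fold higher level (3.03 to 9.15) from 1 library each. Tags of 27 to 30 bases also lie outside the length range used for levels, and 12686 of them matched Mir182, between 10.5% (CHIR99021) and 18.1% (ddH2O) of miR-182-5p tags of 18 to 30 bases.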

How the results depend on the processing

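No paired analysis was possible because each group had 1 library. For the cluster sum, TMM scaling gave log2 ratios of -1.25 (RA), 0.077 (BIO), 0.28 (CHIR99021) and -0.11 (ddH2O against DMSO), and median-of-ratios scaling -1.098, 0.095, 0.31 and -0.090 in that order. All tags gave -2.34 (RA), -0.31 (BIO), -0.72 (CHIR99021), 0.019 (vitamin C) and -0.41 (ddH2O against DMSO). Counting a single tag per arm, the most abundant, gave -0.69, 0.017, 0.32, 0.029 and -0.077 in the same order. Untemplated ends gave -0.78 for RA. Tags of 20 to 24 bases, which leave out most of miR-182-5p, gave -0.24 (BIO), 0.041 (CHIR99021), -0.12 (vitamin C) and 0.11 (ddH2O against DMSO). Lengths chosen after seeing the data gave 0.17 (CHIR99021), -0.11 (vitamin C) and 0.036 (ddH2O against DMSO) for 18 to 30 bases, and -0.083 (BIO) and 0.18 (CHIR99021) for 20 to 26 bases. With that range the mean 3' end difference of RA minus DMSO was -0.12 for miR-182-5p and -0.079 for miR-183-5p, against -0.14 and -0.20.

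Over all arms, RA had 177 called higher and 41 lower, against 98 and 93 with TMM, 113 and 72 with median-of-ratios scaling, 47 and 313 with all tags, and 80 and 20 at a minimum of 100 CPM. BIO had 9 higher and 25 lower, against 17 higher with median-of-ratios scaling, 5 and 54 with all tags, 19 higher with no minimum, and 1 and 8 at 100 CPM. CHIR99021 had 29 and 59, against 5 and 271 with all tags and 9 and 26 at 100 CPM. Vitamin C had 27 and 7, against 12 lower with no minimum and 9 and 0 at 100 CPM. ddH2O against DMSO had 25 and 11, against 20 lower with TMM and with median-of-ratios scaling, 11 and 46 with all tags, and 8 and 4 at 100 CPM. The cause of these changes was not tested, apart from fewer arms at 100 CPM.

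miR-182-3p turned to 2.24 with vitamin C and 1.29 with CHIR99021 when arms began at their most abundant tag, which there is the loop tag. Counting the most abundant tag alone also took the loop tag for this arm, in every comparison. With 3 and 7 counts, depth limits miR-96-3p and miR-182-3p in RA.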
